A study of Mus musculus with 23 samples.

Results

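Fibroblast growth factors (FGFs) and their receptors were followed in RNA sequencing data from mouse sciatic nerves (SNs) after crush injury and after loss of microRNA processing in Schwann cells (SCs). The 10 genes were chosen by symbol and not by a threshold on measured values, but with earlier results of these data known: 6 ligands (Fgf1, Fgf2, Fgf5, Fgf7, Fgf10 and Fgf18) and the 4 receptor tyrosine kinases Fgfr1, Fgfr2, Fgfr3 and Fgfr4. All 10 were listed among the 43068 genes of the crush libraries and the 22880 genes of the mutant libraries. The crush experiment used wild-type male mice of 2 months, C57bl6 by the labels and C57BL/6J by the study's methods. Its groups were the nerve piece distal to the crush at 3 days post crush (dpc, n = 4), the contralateral nerve of injured mice (n = 4) and nerves of uncrushed surgery controls (n = 3). The mutant experiment used mice on the same background that all received tamoxifen on 5 consecutive days at 8 to 10 weeks of age, and nerves were taken 3 months later. Dicer iKO mice carried P0-CreERT2 and Dicer1 flox/flox, Dgcr8 iKO mice carried P0-CreERT2 and Dgcr8 flox/flox, and each had Cre-negative flox/flox controls of its own line (n = 3 per group). The Cre transgene acts in myelinating SCs, so the other cells of the nerve kept both genes, and the mutant mice had been chosen for affected nerve morphology.

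FGFs are signalling proteins that bind receptor tyrosine kinases at the cell surface together with heparan sulfate. Most ligands are secreted through the usual route, while FGF1 and FGF2 lack a classical signal peptide and leave cells in another way. Ligand binding leads through the adaptor FRS2 to the RAS and ERK cascade, which switches on transcription factors of the ETS family and, with them, inhibitors of the Sprouty, Spred and Dusp families that damp the same signal. In peripheral nerve, FGF2 is best known as a mitogen for cultured SCs and a survival factor for neurons.

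The receptors Fgfr1, Fgfr2 and Fgfr3 are each made in versions that differ in a pair of mutually exclusive exons, IIIb and IIIc, which code for the last part of the third immunoglobulin-like loop and set which ligands are bound. FGF7 and FGF10 act mainly on the IIIb version of FGFR2, while FGF1 binds all versions.

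Total counts were 6617716 to 12806066 per crush library and 5594859 to 10143244 per mutant library, so that 3 counts, taken as the detection floor, were worth 0.234 to 0.453 and 0.296 to 0.536 CPM (counts scaled to library size). CPM values were normalized by TMM within each experiment and are given as levels, with mean ± SD. No library duplicated another. Summed over the whole gene, Dicer1 stood at 81.3 to 82.1 CPM in Dicer iKO nerves and 87.4 to 90.5 in their controls, and Dgcr8 at 39.4 to 54.0 CPM in Dgcr8 iKO nerves and 35.4 to 41.8 in theirs. These whole-gene counts also hold reads from outside the floxed exons and from all cells of the nerve, so they do not check the deletion. The 10 myelinating SC markers listed were detected in every group. A change was called where the quasi-likelihood test of edgeR gave a fold change of at least 2 and a p of at most 0.05 after Benjamini-Hochberg adjustment over all genes tested. All adjusted p-values of differences in level below come from this test. In bulk nerve RNA, fewer cells of a type and less RNA per cell cannot be told apart.

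On a scale corrected for gene length (TPM, compared within an experiment only), Fgf1 was the most abundant of the 10 genes in every group but the crushed nerves. Fgf1 stood at 4.46 times the TPM of Fgfr1 in uncrushed and 4.29 times in contralateral nerves, then at 0.155 times in crushed nerves, where Fgfr1 ranked first. Fgfr1 was the leading receptor in all 7 groups. Behind Fgf1, the TPM of Fgfr1 and Fgf7 overlapped between libraries in uncrushed and contralateral nerves and in both control groups of the mutants, so their order there is not resolved. Fgfr2 came next after Fgf2 in uncrushed and contralateral nerves, at 0.108 and 0.0723 times the level of Fgfr1, and Fgfr3 stood at 0.0355 and 0.0151 times. Fgf5 ranked 8 of 10 in uncrushed nerves (0.0333 TPM) and 3 of 10 in crushed nerves (1.09 TPM), where it overlapped with Fgf1 (0.963 TPM). In the crush libraries a single 5S-like ribosomal transcript held 61.4 to 71.8% of all TPM, which lowers the TPM of every other gene alike within a library and leaves this order as it is.

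After crush, 3 FGF ligands and no receptor were called changed. Of 7 genes with enough counts to be tested, Fgf5 rose and Fgf1 and Fgf2 fell, against both the uncrushed and the contralateral nerves, while Fgf7 and the 3 receptors tested were not called. Over all 17433 genes tested against uncrushed nerves, 15.3% were called higher and 21.1% lower, and over the 16667 tested against contralateral nerves 14.6% were called higher and 13.6% lower. The median log2 fold change of the 7 genes was 0.11 and 0.32 against these controls, beside -0.03 and -0.06 over all genes. The same 4 crushed libraries enter both comparisons.

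Fgf1, a ligand of all FGF receptors, had the largest fall among the 7. It stood at 362, 397 and 361 CPM in the 3 uncrushed nerves and at 404, 433, 401 and 410.4 CPM in the 4 contralateral nerves. In the crushed nerves it stood at 19.5, 21.6, 18.1 and 15.1 CPM. Every crushed library was thus far below every control, with no overlap. Fgf1 fell by 4.23 ± 0.12 on the log2 scale (± SE here and for all log2 values below; adjusted p = 1.38e-10), 18.7-fold, against uncrushed nerves. Against contralateral nerves it fell by 4.46 ± 0.10 (adjusted p = 3.69e-13), 22.0-fold. The same libraries differed in their myelinating SC markers: the summed level of these 10 genes was 2064 to 3098 CPM in crushed nerves against 45142 to 48026 in uncrushed and 46964 to 61178 in contralateral nerves, and 9 of the 10 were called lower against both. Their part in the fall of Fgf1 was not tested.

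Fgf2, the mitogen of cultured SCs, fell less. It measured 53.1, 70.2 and 63.1 CPM in uncrushed, 63.8, 67.2, 52.8 and 60.5 CPM in contralateral and 21.1, 23.1, 19.1 and 18.3 CPM in crushed nerves. The crushed nerves again lay below all controls. Its log2 fold change was -1.50 ± 0.11 (adjusted p = 2.48e-07) against uncrushed and -1.57 ± 0.10 (adjusted p = 5.33e-09) against contralateral nerves, 2.83-fold and 2.97-fold lower. Fgf2 overlaps Nudt6 on the opposite strand, and whether the counting used strand is not given in the sources used here.

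Fgf5 was the only one of the 10 genes called higher after crush. This secreted ligand is best known for ending hair growth. It had 7, 3 and 3 counts in uncrushed nerves (0.629, 0.375 and 0.511 CPM) and 2, 4, 0 and 1 counts in contralateral nerves (0 to 0.314 CPM), at or near the floor. Crushed nerves held 232, 164, 114 and 104 counts (18.6, 13.4, 10.5 and 9.80 CPM), with a mean of 13.1 ± 4.02 CPM (SD, n = 4). All 4 crushed libraries lay above all 7 controls. The log2 fold change was 4.72 ± 0.36 (adjusted p = 2.40e-07), 26.4-fold, against uncrushed and 6.25 ± 0.39 (adjusted p = 3.81e-09), 76.3-fold, against contralateral nerves. With so few control counts the size is loosely set: as a ratio of summed counts per total count it was 29.6 (95% counting interval 17.2 to 56.0) with the uncrushed nerves as the base. With the contralateral nerves as the base it was 87.6 (42.2 to 219). Markers of repair SCs (8 genes, of which Shh and Gdnf are best known) moved with it, from 69.5 to 88.3 CPM in the 7 control libraries to 1441 to 2070 CPM in crushed nerves, with 5 called higher against both controls. So did 9 of 10 macrophage markers (summed level of all 10, 805 to 1795 CPM against 137 to 254) and 6 of 6 proliferation markers (735 to 1108 CPM against 17.6 to 40.0). Their part in the rise of Fgf5 was not tested.

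**Figure D1:**
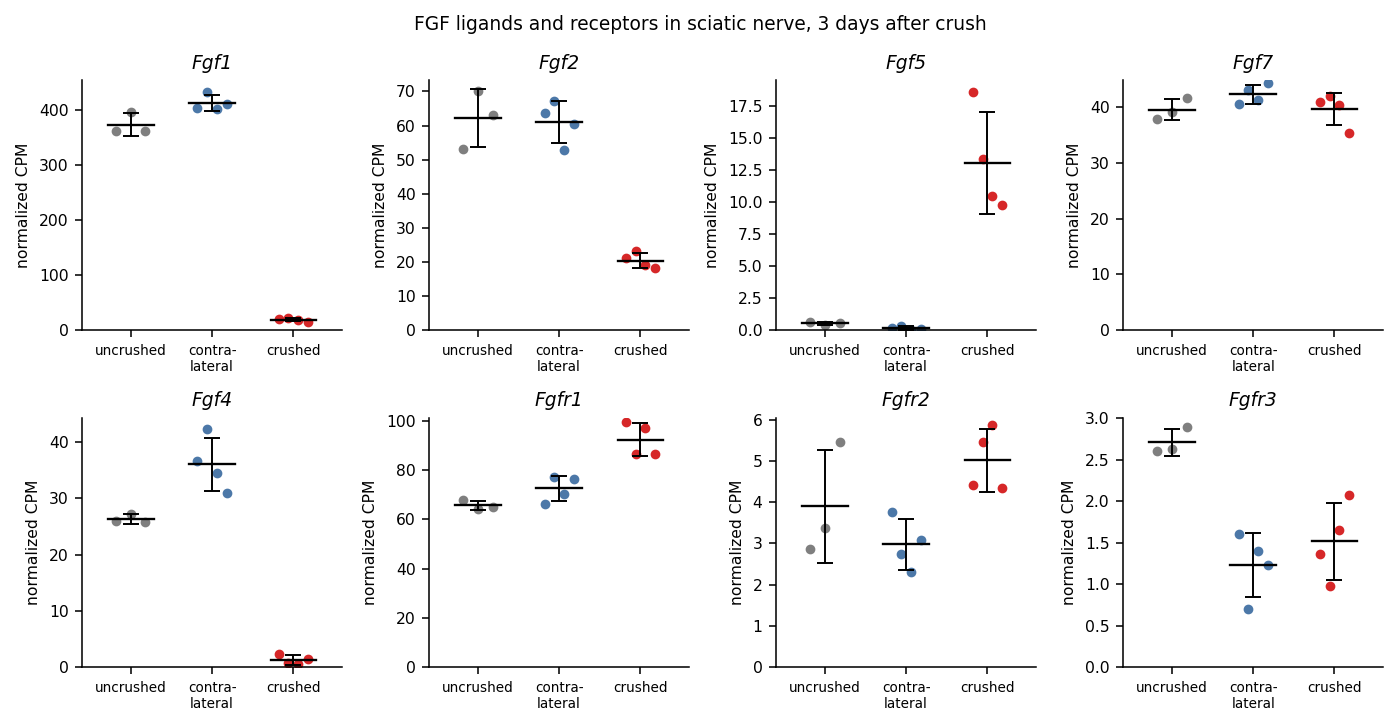
Level of 5 FGF ligands and 3 receptors in normalized CPM (vertical axes, from 0, each panel on its own scale) for every uncrushed (n = 3), contralateral (n = 4) and crushed (n = 4) nerve. Points are libraries, bars the mean and whiskers the SD. Crushed nerves lie at 15.1 to 21.6 CPM for Fgf1 against 361 to 433 in the controls, at 9.80 to 18.6 CPM for Fgf5 against 0 to 0.629, and overlap with the controls for Fgf7.

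Fgf7, also called keratinocyte growth factor and made mainly by mesenchymal cells, did not pass the test after crush. It measured 37.9 to 41.6 CPM in uncrushed, 40.6 to 44.4 in contralateral and 35.4 to 42.0 in crushed nerves, and the groups overlapped. The log2 fold change was 0.11 (95% interval -0.08 to 0.30; adjusted p = 0.283) against uncrushed and -0.08 (-0.24 to 0.08; adjusted p = 0.368) against contralateral nerves, so a change of 2-fold lies outside both intervals. These small differences depend on the scaling: with no filter on counts the median of all genes shifted by 0.227 and 0.165, and Fgf7 then stood at 0.340 (adjusted p = 0.0459) and 0.0863. With at least 10 counts in every sample it stood at -0.00912 and -0.136. The 10 nerve fibroblast markers summed to 3476 to 4093 CPM in crushed nerves against 5161 to 6749 CPM in the controls, with 1 called higher and 2 lower against both.

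No receptor was called after crush. Fgfr1, the leading receptor, measured 67.8, 64.3 and 64.9 CPM in uncrushed, 66.4, 77.4, 70.1 and 76.4 CPM in contralateral and 99.5, 86.6, 96.9 and 86.5 CPM in crushed nerves. The crushed nerves were above all controls, by 1.51-fold against uncrushed (log2 fold change 0.59 ± 0.09, adjusted p = 0.000158) and 1.29-fold against contralateral nerves (0.36 ± 0.08, adjusted p = 0.00155), short of the fold needed for a call. By the adjusted p alone, 33.8% and 33.5% of all genes were higher in these comparisons.

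Fgfr2, the receptor through whose IIIb version FGF7 acts, measured 2.88, 3.38 and 5.45 CPM in uncrushed, 3.77, 2.75, 2.31 and 3.08 CPM in contralateral and 4.41, 5.46, 5.87 and 4.34 CPM in crushed nerves. Crushed nerves lay above all contralateral nerves (log2 fold change 0.76 ± 0.19, adjusted p = 0.00237) but overlapped with the uncrushed nerves (0.51 ± 0.23, adjusted p = 0.0671). Neither difference was called.

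Fgfr3 differed between the controls themselves. It measured 2.61, 2.63 and 2.90 CPM in uncrushed nerves, 1.60, 0.707, 1.40 and 1.23 CPM in contralateral nerves and 1.36, 0.978, 1.65 and 2.07 CPM in crushed nerves. The uncrushed nerves stood above all others. Crushed nerves were lower than uncrushed nerves by the adjusted p alone (log2 fold change -0.73 ± 0.30, adjusted p = 0.0465), as 33.4% of all genes were, and did not differ beyond their spread from contralateral nerves (0.32 ± 0.33, adjusted p = 0.399). Over the alternatives run, that adjusted p against uncrushed nerves ranged from 0.0162 to 0.243. Contralateral nerves were below uncrushed nerves by a log2 fold change of -1.14 ± 0.32, which did not pass adjustment (adjusted p = 0.142).

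None of the 6 genes tested between contralateral and uncrushed nerves was called. Over 17722 genes, 0% were called higher and 0% lower in that comparison by edgeR, 3165 had an unadjusted p under 0.05, and DESeq2 called 20. With no filter on counts edgeR called 13 higher and 128 lower over all genes it then tested, and with all groups in one fit it called 1 lower. Fgf1, Fgf2, Fgf7 and Fgfr1 had log2 fold changes of -0.03 to 0.14 there, with 95% intervals between -0.26 and 0.32. The contralateral nerves lay above the uncrushed nerves for Fgf1 without overlap (0.14 ± 0.08, adjusted p = 0.402). Fgf5, at or near the floor in both groups, was not tested.

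Fgf10, Fgf18 and Fgfr4 had too few counts to test in any comparison. Fgf10, a ligand of the IIIb version of FGFR2, had 0 to 6 counts per library in all 23 libraries, Fgf18 had 0 to 8, and Fgfr4, best known in liver as a receptor for FGF19-type ligands, had 0 to 5. Fgf18 had 4 counts in every crushed nerve (0.321 to 0.377 CPM) and 4 to 7 in the contralateral nerves (0.410 to 0.566 CPM). These did not overlap (exact permutation p = 0.0286, two-sided, the smallest that 4 against 4 libraries allow), but the uncrushed nerves spread over both, from 0 to 1.36 CPM. With values at the floor, a difference was not detectable at this depth for these genes.

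Of 12 other FGF ligands, only Fgf4 had enough counts to be tested. FGF4 is a ligand of the IIIc receptor versions known from early embryos and limb buds. It measured 26.0, 27.3 and 25.7 CPM in uncrushed, 36.6, 42.3, 34.5 and 31.0 CPM in contralateral and 2.41, 0.815, 0.550 and 1.51 CPM in crushed nerves. All crushed nerves lay below all controls, with a log2 fold change of -4.19 ± 0.28 (adjusted p = 8.58e-08) against uncrushed and -4.73 ± 0.25 (adjusted p = 6.23e-10) against contralateral nerves. Of the 4 FGF homologous factors, which stay inside the cell and bind sodium channels, Fgf11 fell by 1.10 ± 0.18 and 1.08 ± 0.16 on the log2 scale against the 2 controls (adjusted p = 0.000226 and 4.24e-05), and Fgf14 did not pass the test (-0.67 ± 0.55 and -0.80 ± 0.43). Fgf12 and Fgf13 were not tested after crush.

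In the mutants without injury, Fgf1 and Fgf7 were lower in both lines, Fgfr2 was higher in one, and Fgf2, Fgfr1 and Fgfr3 did not pass the test. In Dgcr8 iKO nerves Fgf1 and Fgf7 were called lower and Fgfr2 higher among 6 genes tested, where 13.4% of 13252 genes were called higher and 6.99% lower. In Dicer iKO nerves none of the same 6 was called, where 7.37% of 13045 genes were called higher and 1.64% lower, although Fgf1 and Fgf7 passed the adjusted p alone, as did 8.88% of all genes in that direction. The median log2 fold change of the 6 genes was -0.18 in Dicer iKO and -0.21 in Dgcr8 iKO nerves, beside -0.01 over all genes in each. The lines have separate controls.

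Fgf7 had the lowest log2 fold change among the 6 in Dgcr8 iKO nerves. It measured 61.5, 67.3 and 87.4 CPM in Dicer controls and 47.7, 38.8 and 32.3 CPM in Dicer iKO nerves, then 75.0, 62.0 and 87.3 CPM in Dgcr8 controls and 28.2, 26.6 and 18.7 CPM in Dgcr8 iKO nerves. In both lines every mutant lay below every control. Fgf7 stood at -0.86 ± 0.18 (log2, adjusted p = 0.0172), 1.82-fold lower, in Dicer iKO and -1.61 ± 0.18 (adjusted p = 4.77e-05), 3.06-fold lower, in Dgcr8 iKO nerves. Fgf7 overlaps Fam227b on the opposite strand. The 10 nerve fibroblast markers went the other way in the same libraries, with summed levels of 23813 to 24788 CPM in Dicer iKO against 6145 to 17642 CPM in Dicer controls, and of 18761 to 22340 CPM in Dgcr8 iKO against 8202 to 10697 CPM in Dgcr8 controls. Of these 10, 3 were called higher in Dicer iKO and 6 in Dgcr8 iKO nerves, Col1a1 and Col3a1 among them in both, and none was called lower. The 7 endothelial markers were summed at 188 to 213 CPM in Dicer iKO against 270.3 to 292 in Dicer controls and 198 to 270.2 CPM in Dgcr8 iKO against 300.1 to 347 in Dgcr8 controls, with 0 and 1 called lower. The 6 perineurial markers were at 505 to 678 against 736 to 1546 CPM in the Dicer line and overlapped in the Dgcr8 line (435 to 560 against 556 to 899 CPM). Of these 6, 1 was called lower and none higher in Dicer iKO nerves (median log2 fold change -0.99). In Dgcr8 iKO nerves 2 were called higher and none lower (median 1.27), so single markers there went against the sum. The part of these cell types in the lower Fgf7 was not tested.

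Fgf1 measured 572, 595 and 686 CPM in Dicer controls and 417, 279 and 270.2 CPM in Dicer iKO nerves. In the other line it measured 528, 469.5 and 657 CPM in controls and 193, 291 and 144 CPM in Dgcr8 iKO nerves. Mutants and controls did not overlap in either line. Fgf1 stood at -0.94 ± 0.19 (log2, adjusted p = 0.0135), 1.91-fold lower, in Dicer iKO and -1.40 ± 0.24 (adjusted p = 0.000745), 2.64-fold lower, in Dgcr8 iKO nerves. The myelinating SC markers summed to 25465 to 32627 CPM in Dicer iKO against 33247 to 55492 CPM in Dicer controls, and to 16291 to 31480 CPM in Dgcr8 iKO against 50596 to 53756 CPM in Dgcr8 controls, with 0 and 6 of the 10 called lower. Their part in the lower Fgf1 was not tested.

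Without Dicer iKO nerve 1, which had the highest Fgf1 and Fgf7 of its group, both genes were called lower in Dicer iKO as well, with log2 fold changes of -1.15 and -1.01. At the other end, leaving out 1 library brought them to -0.815 and -0.700. Over the alternatives run, their adjusted p in Dicer iKO reached 0.0702 and 0.077.

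Fgfr2 was called higher in Dgcr8 iKO nerves and did not pass in the Dicer line, where it spread widely. It measured 12.8, 8.20 and 3.65 CPM in Dicer controls against 24.9, 12.4 and 15.0 CPM in Dicer iKO nerves. It measured 5.08, 8.44 and 4.15 CPM in Dgcr8 controls against 15.5, 11.1 and 16.2 CPM in Dgcr8 iKO nerves. The groups overlapped in the Dicer line and did not in the Dgcr8 line. The log2 fold change was 1.10 ± 0.43 (adjusted p = 0.113) in Dicer iKO and 1.29 ± 0.27 (adjusted p = 0.00266), 2.44-fold, in Dgcr8 iKO nerves. Without Dicer control 1, which had the highest Fgfr2 of its group, the value in Dicer iKO was 1.56 (adjusted p = 0.035). At the other end, leaving out 1 library brought it to 0.745. Over the alternatives run, its adjusted p in Dicer iKO reached 0.282.

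**Figure D2:**
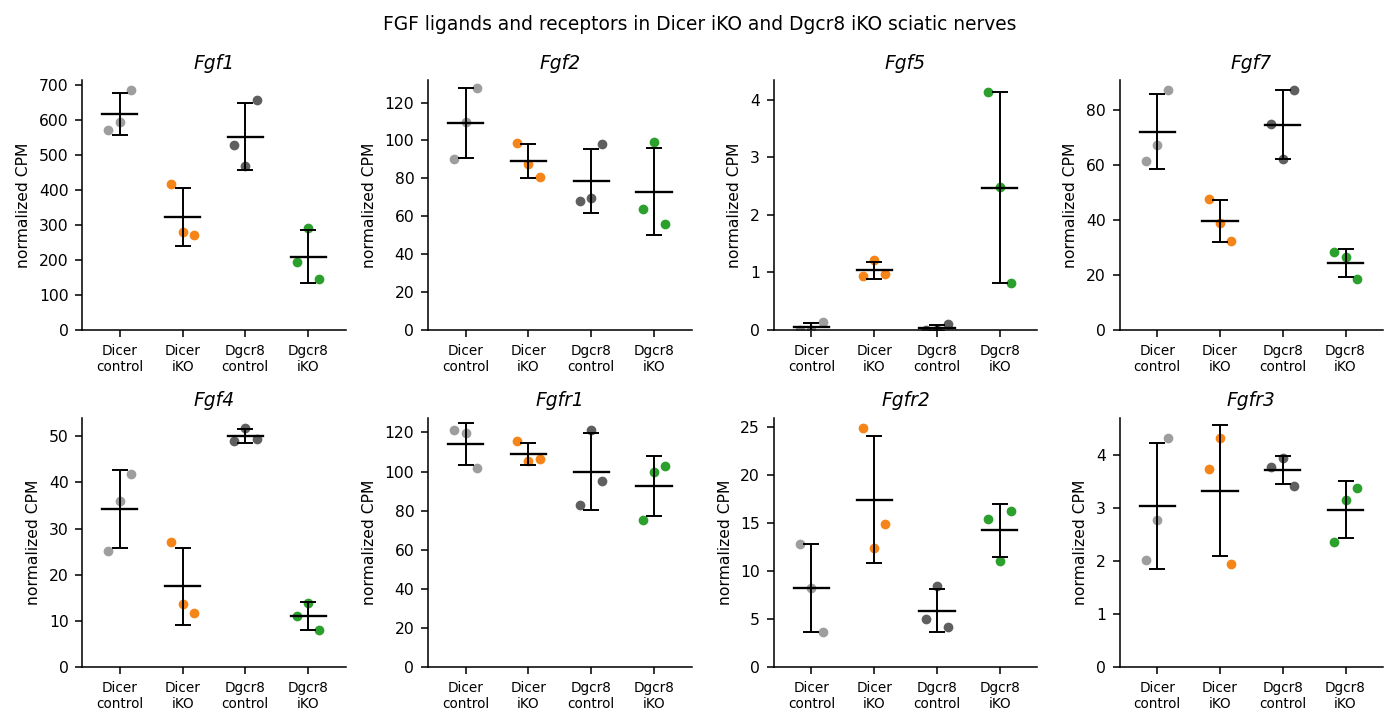
Level of the same 8 genes in normalized CPM (vertical axes, from 0, each panel on its own scale) in Dicer control, Dicer iKO, Dgcr8 control and Dgcr8 iKO nerves (n = 3 each). Points are libraries, bars the mean and whiskers the SD. Fgf1 and Fgf7 are lower in every mutant library than in every control of its line, and Fgfr2 is higher in Dgcr8 iKO (11.1 to 16.2 CPM) than in its controls (4.15 to 8.44 CPM).

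Fgf5 appeared in all 6 mutant nerves at low counts. Dicer iKO nerves had 7, 7 and 7 counts and Dgcr8 iKO nerves 35, 26 and 7, against 0, 0 and 1 in the controls of each line. Mutant levels were 0.932 to 1.21 CPM and 0.816 to 4.13 CPM, all above the floor of 0.296 to 0.536 CPM, and all control libraries were under it. The ratio of summed counts per total count was 23.7 (95% counting interval 3.81 to 979) for Dicer iKO and 68.0 (11.8 to 2723) for Dgcr8 iKO. These counts did not pass the filter of the test. With no filter, edgeR's adjusted p was 0.0270 in Dicer iKO and 3.50e-05 in Dgcr8 iKO nerves, and an exact permutation test of CPM gave p = 0.1 in each line, the smallest that 3 against 3 libraries allow (two-sided). These levels were not compared with those of the crushed nerves. The labels name another library kit for the crush libraries than for the mutant lines, while the study's methods name a single kit. Repair SC markers were at 292 to 334 CPM in Dicer iKO and 404 to 505 CPM in Dgcr8 iKO nerves against 87.0 to 166 and 99.0 to 101 CPM in their controls, with Olig1 and Artn at 0 in the Dgcr8 controls. The macrophage markers were at 3995 to 7185 and 2616 to 6344 CPM against 420.3 to 1266 and 404 to 486 CPM. Of these 10, 6 were called higher and 0 lower in Dicer iKO, and 7 higher and 1 lower in Dgcr8 iKO nerves. The part of repair SC or macrophage markers in the counts of Fgf5 was not tested.

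Fgf2, which had fallen after crush, did not differ beyond its spread in the mutants. It measured 90.2, 109.9 and 128 CPM in Dicer controls and 98.5, 87.8 and 81.0 CPM in Dicer iKO nerves (log2 fold change -0.29, 95% interval -0.63 to 0.04, adjusted p = 0.188). In the Dgcr8 line it measured 68.2, 69.4 and 98.1 CPM in controls and 63.7, 99.2 and 56.0 CPM in mutants (-0.11, -0.58 to 0.36, adjusted p = 0.705). Mutants and controls overlapped in both lines.

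Fgfr1 measured 102 to 121 CPM in Dicer controls, 105 to 115 in Dicer iKO, 82.8 to 121 in Dgcr8 controls and 75.1 to 103 CPM in Dgcr8 iKO nerves. The log2 fold changes were -0.07 (95% interval -0.31 to 0.18, adjusted p = 0.685) and -0.11 (-0.47 to 0.26, adjusted p = 0.629). Fgfr3, at 1.94 to 4.32 CPM in all 12 libraries, had log2 fold changes of 0.12 (-0.85 to 1.09, adjusted p = 0.857) in Dicer iKO and -0.32 (-0.94 to 0.30, adjusted p = 0.382) in Dgcr8 iKO nerves. The Dgcr8 iKO nerves (2.36 to 3.38 CPM) lay just below their controls (3.42 to 3.95 CPM), and the wide interval in Dicer iKO does not leave out a change near 2-fold. Fgfr4 had 0 counts in 9 of the 12 libraries, which allows up to 0.296 to 0.536 CPM at the floor.

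Fgf4 moved with Fgf1 in direction. It measured 25.1, 36.0 and 41.8 CPM in Dicer controls, 27.0, 13.8 and 11.8 CPM in Dicer iKO, 49.0, 51.8 and 49.4 CPM in Dgcr8 controls and 11.1, 14.0 and 8.05 CPM in Dgcr8 iKO nerves. It was called lower in Dgcr8 iKO (log2 fold change -2.17 ± 0.18, adjusted p = 7.65e-06), with no overlap, and did not pass in Dicer iKO nerves (-0.96 ± 0.33, adjusted p = 0.0734), where Dicer iKO nerve 1 lay among the controls. Fgf12 was called lower in Dgcr8 iKO nerves (-2.36 ± 0.46, adjusted p = 0.00169) and was not tested in Dicer iKO. It had 13, 16 and 20 counts in Dgcr8 controls and 3, 4 and 3 in Dgcr8 iKO nerves. The mutant counts are at or near the floor, so the size of this fall is loosely set. Fgf11 did not pass in either line (-0.41 ± 0.20 and -0.19 ± 0.25).

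The effects of the Dgcr8 and Dicer iKO on these genes were not shown to differ. In an interaction test over the 12 mutant-line libraries, none of the 6 genes passed, where 0.0148% of 13552 genes (2) did. That number depends on the tool: at the same adjusted p, DESeq2 found 240 genes, edgeR with no filter 20, edgeR with RLE normalization 1 and edgeR limited to genes reaching 10 counts in each library 0. None of the 6 passed under these alternatives either. The largest difference was that of Fgf7, lower by a further 0.75 ± 0.28 (log2, 95% interval -1.34 to -0.15) in Dgcr8 iKO, with an unadjusted p of 0.0183 and an adjusted p = 0.279. For Fgf1 the difference was -0.46 (-1.18 to 0.27) and for Fgfr2 0.19 (-1.01 to 1.39), so differences near 2-fold between the mutants are not left out.

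**Figure D3:**
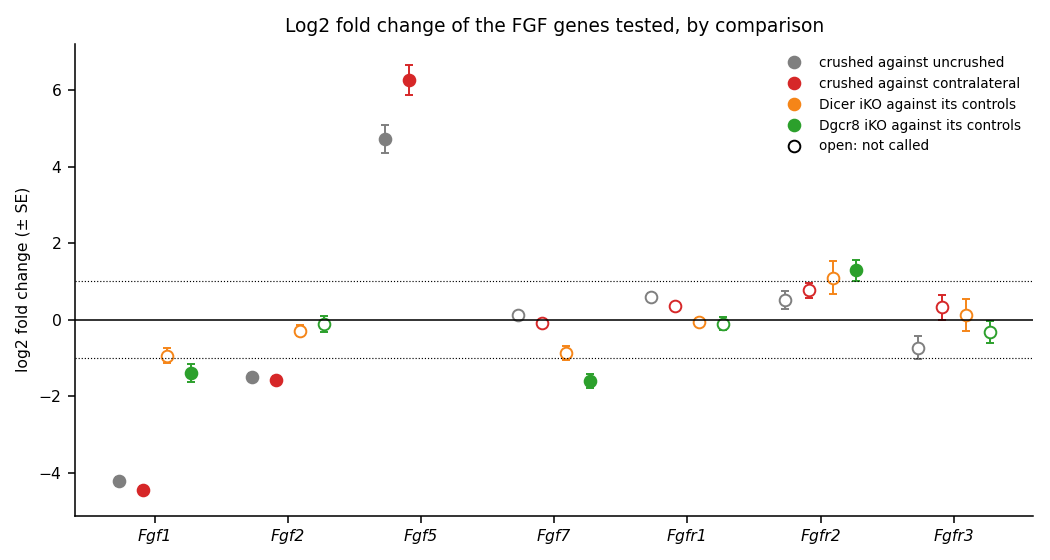
Log2 fold change ± SE (vertical axis) of the FGF genes tested, in 4 comparisons against controls. Filled points were called at 2-fold and an adjusted p of at most 0.05, open points were not, and dotted lines mark 2-fold. Fgf1 lies at -4.46 to -0.94 in all 4 comparisons, Fgf2 is called after crush only, and Fgf7 in Dgcr8 iKO only. Fgf5 has no point for the mutants because it was not tested there.

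Set side by side, the crushed and the mutant nerves held the same direction for Fgf1 and Fgf4 (lower), for Fgf5 (more counts) and for Fgfr2 (higher). Fgfr2 stood at 0.51 and 0.76 on the log2 scale after crush and at 1.10 and 1.29 in the mutants. It was called in Dgcr8 iKO only and overlapped with the uncrushed nerves and with the Dicer controls. Fgf2 stood at -1.50 and -1.57 on the log2 scale after crush and at -0.29 and -0.11 in the mutants. Fgf7 stood at 0.11 and -0.08 after crush and at -0.86 and -1.61 in the mutants. No test of these differences between the 2 experiments was made, since they differ in mice and age and, by the labels, in library kit.

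The transcripts of each gene were compared as shares within the gene. Most Fgf1 counts (95.8 to 100% in every library) were assigned to transcript Fgf1-201 and most Fgf2 counts (95.7 to 100%) to Fgf2-208. By TPM, which weighs short transcripts more, the group means of these were 73.9 to 98.8% and 75.0 to 93.1%. Fgf7 was split between several transcripts, with 38.1 to 84.3% of counts in Fgf7-201. In the Dgcr8 line, Fgf7-201 held 65.8% ± 7.64 (SD, n = 3) in mutants and 48.1% ± 5.38 in controls, with no overlap, while in the Dicer line it held 53.7% ± 6.55 in mutants and 68.0% ± 15.2 in controls. The exact permutation test (two-sided) gave p = 0.1 and 0.2 for these. Of the 32 share comparisons adjusted together, none passed (lowest adjusted p = 0.960), and the smallest p that 3 against 3 libraries allow is 0.1. Most Fgf5 counts in crushed nerves were in Fgf5-201 (92.5 to 98.3%), and by TPM the group mean was 81.6%.

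Fgfr1 was nearly all of the IIIc version. Transcripts with the IIIc exon held 95.7 to 100% of the TPM of classed Fgfr1 transcripts in the 11 crush libraries, and 8 of these 11 held no IIIb count at all. In the 12 mutant-line libraries the share was 87.3 to 99.4%. It did not differ beyond the spread after crush (99.6% ± 0.809 against 98.6% ± 2.50 in uncrushed nerves) or in the mutants (Dicer iKO 93.7% ± 5.60 against 96.6% ± 2.77 in controls, Dgcr8 iKO 96.0% ± 1.17 against 95.8% ± 3.11). Fgfr2 could be classed in the mutant-line libraries only, where IIIc transcripts held 58.8 to 100% of TPM from 11.6 to 160 classed counts, and were 90.4% ± 4.09 in Dgcr8 iKO against 72.9% ± 23.5 in its controls (exact permutation p = 0.4). Fgfr3, and Fgfr2 in the crush libraries, had under 50 classed counts per library on average, and RSEM assigned whole libraries to one version or the other, so no share is given.

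Fgfr1 also has forms with and without a first immunoglobulin-like loop, through a coding exon of 267 bases (chr8:25555508-25555774) that 3 of its 6 classed transcripts carry. This split was added after the transcript values had been seen, and its 5 comparisons were not adjusted. Transcripts with the loop held 38.8 to 48.9% of TPM in the 11 crush libraries, with overlapping groups. They held 63.4% ± 2.06 in Dicer controls and 54.5% ± 5.06 in Dicer iKO nerves, which did not overlap (exact permutation p = 0.1, or 0.2 by counts), and 66.4% ± 2.78 and 60.3% ± 5.95 in Dgcr8 controls and Dgcr8 iKO nerves, which overlapped (p = 0.2).

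**Figure D4:**
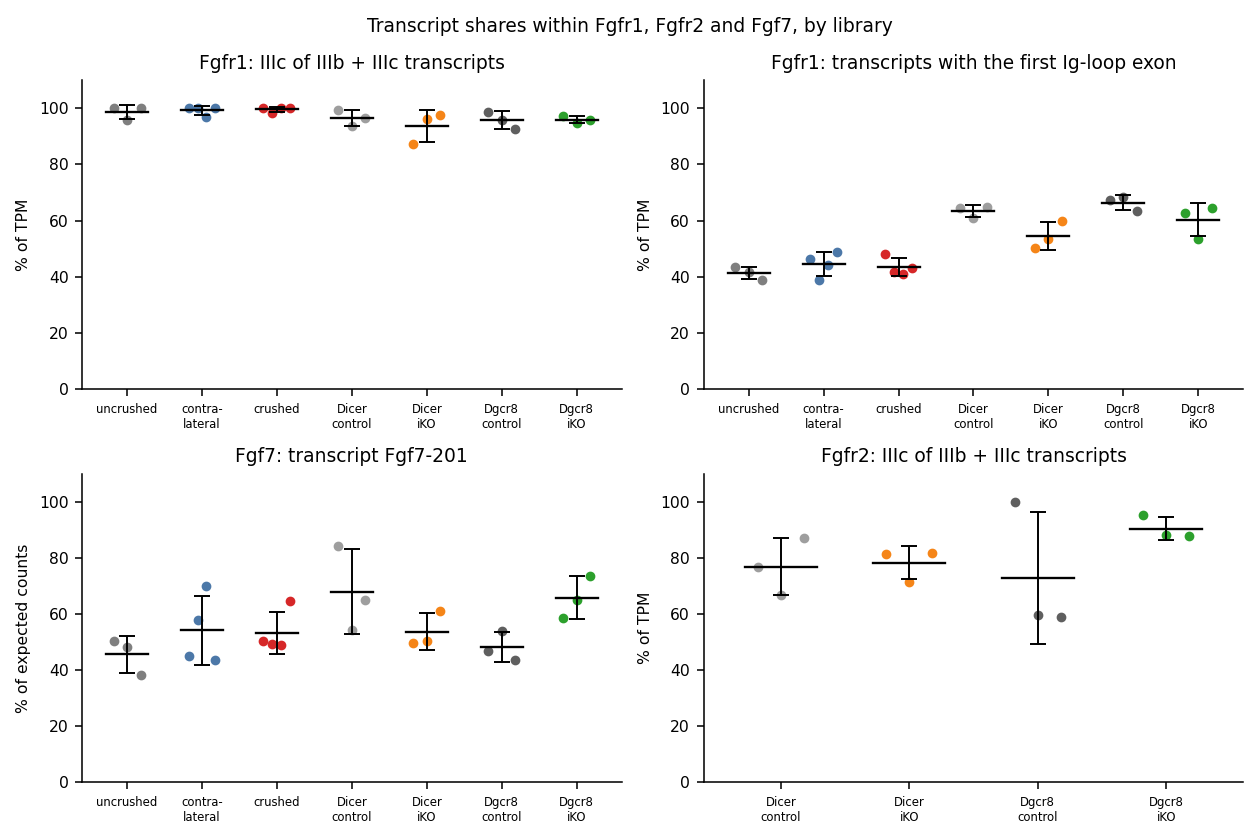
Share of a gene's RNA (vertical axes, percent from 0) in IIIc transcripts of Fgfr1 and Fgfr2, in Fgfr1 transcripts with the first loop exon and in transcript Fgf7-201, by library and group, with mean and SD. Fgfr1 is near 100% IIIc in every group, while Fgfr2 and Fgf7-201 spread widely between libraries of 1 group.

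The other parts of the FGF pathway were read from lists matched for 180 of 181 symbols. The symbol without a match was a feedback inhibitor, so that list was counted with 13 genes and is not complete. Of the 13 feedback inhibitors, 7 were called higher against uncrushed and 6 against contralateral nerves and none lower, 53.8% and 46.2% beside 15.3% and 14.6% of all genes, with a median log2 fold change of 1.29 and 0.99. Dusp5, a nuclear phosphatase for ERK, rose by 3.89 ± 0.19 and 4.20 ± 0.14, and Spred3, an inhibitor of RAS signalling, by 1.77 ± 0.17 and 1.77 ± 0.16. In Dicer iKO nerves 1 of 13 was called higher (Dusp5, 1.62 ± 0.39) and in Dgcr8 iKO nerves 4 of 13 (Dusp5, 2.41 ± 0.42), with medians of 0.06 and 0.48. The share in Dicer iKO (7.7%) is near that of all genes (7.37%), and in Dgcr8 iKO it is 30.8% beside 13.4%. Those of these genes that respond to ERK do so downstream of any receptor, so the list is not specific to FGF.

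Of the 10 ETS targets and early response genes, 7 and 8 were called higher against uncrushed and contralateral nerves and none lower (70.0% and 80.0% beside 15.3% and 14.6% of all genes, medians 1.24 and 1.36). Fosl1, a partner of JUN, rose by 5.50 ± 0.25 and 6.53 ± 0.22 and Fos by 3.29 ± 0.20 and 3.39 ± 0.12. In the mutants 2 and 3 of 9 tested were called higher (22.2% and 33.3% beside 7.37% and 13.4%, medians 0.30 and 0.84): the cyclin gene Ccnd1 stood at 1.88 ± 0.16 and 2.89 ± 0.27 and Myc at 1.06 ± 0.27 and 2.03 ± 0.25.

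Heparan sulfate genes and co-receptors were mixed. Of 22 core proteins and enzymes, 5 and 4 were called higher and 1 and 2 lower after crush. The shares higher were 22.7% and 18.2%, near the 15.3% and 14.6% of all genes, and the shares lower were 4.5% and 9.1% beside 21.1% and 13.6%. Among them were the membrane-anchored core protein Gpc1 up by 4.68 ± 0.14 and 4.56 ± 0.12, heparanase (Hpse), which cuts heparan sulfate, up by 2.47 ± 0.54 and 3.19 ± 0.41, and agrin (Agrn) at -1.34 ± 0.11 and -1.62 ± 0.11. In the mutants 1 and 5 of 22 were called higher (4.5% and 22.7%, beside 7.37% and 13.4% of all genes) and none lower, Hpse at 3.27 ± 0.58 and 6.05 ± 0.42. Of 10 co-receptors, decoys and carriers tested after crush, 3 were called higher against each control and 3 and 2 lower, beside 15.3% and 14.6% of all genes higher and 21.1% and 13.6% lower. The co-receptor Nrp1 rose by 2.18 ± 0.13 and 2.08 ± 0.11 and the ligand carrier Fgfbp3 by 1.66 ± 0.23 and 2.23 ± 0.24, while Flrt1 stood at -2.10 ± 0.30 and -1.83 ± 0.31 and Cdh2 at -1.37 ± 0.11 and -1.60 ± 0.12. In Dicer iKO nerves 1 of 10 was called higher and 1 lower, beside 7.37% and 1.64% of all genes. In Dgcr8 iKO nerves 4 of 9 were called higher (44.4% beside 13.4% of all genes) and 1 lower (11.1% beside 6.99%). Nrp1 was higher in both mutants (1.50 ± 0.24 and 2.02 ± 0.13).

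Of the 18 adaptors and relay proteins none was called higher in any of the 4 comparisons, beside 15.3%, 14.6%, 7.37% and 13.4% of all genes. After crush 3 and 4 were called lower (16.7% and 22.2%, beside 21.1% and 13.6% of all genes), and 0 and 2 in Dicer and Dgcr8 iKO nerves (11.1% in the latter, beside 6.99%). The share called lower against uncrushed nerves is below that of all genes. By the adjusted p alone, 8 were higher and 6 lower against uncrushed nerves, beside 33.8% and 33.4% of all genes. Against contralateral nerves 7 were higher and 8 lower by that rule, beside 33.5% of all genes higher. Mapk3, which encodes ERK1, stood at -1.49 ± 0.10 and -1.73 ± 0.09 after crush and the adaptor Frs3 at -1.70 ± 0.46 and -1.49 ± 0.32. The summed levels of macrophage, proliferation and repair SC markers were higher in the same crushed and mutant libraries, and their part in these counts was not tested.

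**Figure D5:**
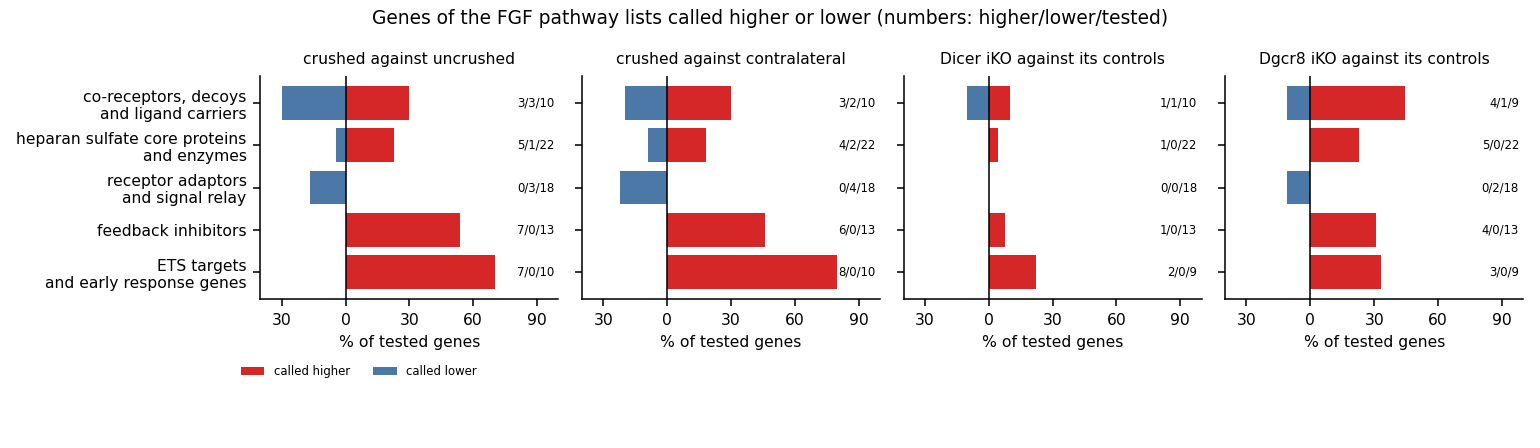
Percent of the tested genes of 5 FGF pathway lists that were called higher (right of 0) or lower (left of 0), in 4 comparisons, with the numbers called higher, called lower and tested beside each bar. After crush, 7 and 6 of 13 feedback inhibitors and 7 and 8 of 10 ETS targets and early response genes were called higher and none lower. No adaptor was called higher in any panel. Over all genes, 15.3%, 14.6%, 7.37% and 13.4% were called higher in the 4 panels.

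The genes whose levels ran closest to those called were found by Pearson's r of log2(CPM + 1). These are descriptions: libraries of a group share their treatment, so an r near 1 mainly says that the genes separate the same groups. Over the 11 crush libraries, Fgf1 ran with Fam81a (r = 0.9996), Idi1 and Arhgap19 (0.9995 each), Fgf2 with Rprd1a (0.9944), Scn7a (0.994) and Nsdhl (0.9935), and Fgf5 with Ntm (0.9951), Car2 (0.9947) and Manf (0.9938). Idi1 and Nsdhl are enzymes of sterol synthesis. Over the 12 mutant-line libraries, Fgf7 ran with Rap1gds1 (0.9921), Zfp664 (0.99) and Pea15a (0.9883), Fgf1 with D3Ertd751e (0.9922), Rhobtb3 (0.9918) and Stmn1 (0.9893), and Fgfr2 with Lrrc17 (0.9756), Ntrk2 (0.9634) and Atp7b (0.9571).

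In the GENCODE M21 annotation of GRCm38, 4 of the 5 genes called in a comparison lie at chr3:37348346-37410108 (Fgf2, plus strand), chr5:98254184-98277030 (Fgf5, plus strand), chr2:126034658-126091185 (Fgf7, plus strand) and chr7:130162451-133123350 (Fgfr2, minus strand). The long span of Fgfr2 comes from an extended transcript that covers many other genes. The other, Fgf1, overlaps Arhgap26 on the opposite strand.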

How the data were processed

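Total RNA from mouse SNs was sequenced by the authors (11 crush and 12 mutant-line libraries). Crush libraries were made with a SMARTer pico kit and mutant-line libraries with TruSeq stranded and Ribo Zero, per the labels; the study's methods name only the latter. Trimmomatic, STAR and RSEM were run by the authors on GRCm38. The expected counts deposited for each transcript are not normalized, and their sum per gene was rounded. TPM values deposited by the authors, which RSEM corrects for transcript length and library size, were used only for levels between genes and for exon shares. Tests used R 4.3.3, edgeR 4.0.16 (quasi-likelihood, TMM, filterByExpr with a minimum count of 10, limma 3.58.1) with DESeq2 1.42.0 as an alternative, at a fold of 2 and an adjusted p of 0.05. DESeq2's adjusted p left as missing counted as no call. Standard errors are the log2 fold change over the square root of the F statistic, and 95% intervals use the t distribution that gives the same p. Gene IDs were named for 42365 crush and 22570 mutant-line genes. Counting intervals are exact (Clopper-Pearson) and cover counting error only, since reads carry no molecular identifiers. Shares of transcripts were taken for genes with at least 50 counts per library on average. The tests were checked on simulated data.

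By the study's methods, crushed and contralateral nerves came from the same injured mice. The labels do not say that same-numbered samples are paired, so the main tests treated all nerves as unpaired. The p-values measure the spread between nerves. The title and the description of an uncrushed library number it differently (3 and 4), and the title was used. The 10 genes, the pathway and marker lists and the tests were chosen with earlier results of these data known. Named by rule were all 10 genes, every other FGF passing the filter, up to 2 highest and 2 lowest genes of each pathway list called in both crush comparisons or both mutants, and the 3 genes nearest by correlation. The alternatives were RLE normalization, no filter, at least 10 counts in every sample, DESeq2, all groups in one fit, the replicate number as a block, TPM in place of counts for shares (and the reverse), and each library left out in turn. Exon sequences of the receptors and 1 marker gene are not reported here.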

Additional observations from a re-analysis of the deposited data

Results flagged for a closer look

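In groups of 4 nerves, 33 sets of values were checked for a sample far from the rest, of which chance would flag about 1 in 20, and 3 were found, all of them transcript shares. In crushed nerves, 1 library had 64.6% of Fgf7 counts in Fgf7-201, while the others lay between 48.8 and 50.3%. The IIIc share of Fgfr1 was 98.4% in 1 crushed nerve and 97.0% in 1 contralateral nerve, where the other 3 of each group were at 100%. Those 3 are at the upper end of the scale, so any library with a IIIb count stands apart. No level of the 10 genes was so marked.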

How the results depend on the processing

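Under each alternative the direction of every called gene among the 10 held. No call of the main test on these 10 was lost where the gene could be tested. With at least 10 counts in every sample, Fgf5 dropped out after crush, so the number called higher went from 1 to 0 against both controls. With no filter, Fgf5 was tested in the mutants and called, so the number called higher went from 0 to 1 in Dicer iKO and from 1 to 2 in Dgcr8 iKO. With 1 library left out, the number called higher ranged from 0 to 1 and the number called lower from 0 to 2 in Dicer iKO, and the number called higher from 1 to 2 in Dgcr8 iKO, where Fgf5 then passed the filter. Those in Dicer iKO came from Fgfr2 without Dicer control 1 and from Fgf1 and Fgf7 without Dicer iKO nerve 1. A block for the replicate number left the counts called the same, 1 higher and 2 lower after crush and in Dgcr8 iKO and 0 in Dicer iKO, and the adjusted p of Fgf1 and Fgf7 in Dicer iKO went from 0.0135 and 0.0172 to 0.05703 and 0.07578. Same-numbered samples showed no clear shared deviation (correlation of deviations from the group means -0.204 to 0.226, mean of each comparison -0.0789 to 0.0454). That does not show crushed and contralateral nerves to be unpaired, since the numbers may not mark the mouse. The median of all genes shifted by over 0.1 (log2) from the values reported with no filter (0.227 and 0.165 against uncrushed and contralateral nerves) and, against uncrushed nerves, with at least 10 counts in every sample (-0.118) and all groups in one fit (-0.104). Over all genes, the contralateral against uncrushed calls went from 0 to 13 higher and 128 lower with no filter and to 20 lower with DESeq2, and genes passing the test between the mutant lines went from 2 to 240 with DESeq2 and 20 with no filter. Depth limits Fgf10, Fgf18, Fgfr4 and the exon shares of Fgfr2 and Fgfr3.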
